A study of Homo sapiens with 4 samples.

Results

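The TRAIL and FAS death receptor pathway was followed in A549 cells with and without ectopic FCN3, through 10 genes chosen by symbol: the receptors TNFRSF10A, TNFRSF10B, TNFRSF10D, FAS and TNFRSF1A, the ligand TNFSF10, the adaptor FADD, the regulator CFLAR, and the initiator caspases CASP8 and CASP10. All 10 were among the 25192 genes of the deposited tables. A549 is a human lung adenocarcinoma cell line. Cells were transduced with the control empty virus (EV), a retrovirus that expresses GFP alone, or with the same vector carrying full-length FCN3 with a V5 tag. RNA was taken 48 h after infection, giving 2 EV and 2 FCN3 libraries of stranded mRNA. The sources used here name no sort of GFP-positive cells, and nothing in the labels says whether the replicates were separate transductions. The p-values therefore concern these libraries only and not the spread between transductions. In bulk RNA, fewer cells expressing a gene and less RNA of that gene per cell cannot be told apart.

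Death receptors are members of the TNF receptor superfamily that carry a death domain on their cytoplasmic side. When TRAIL (TNFSF10) binds DR4 (TNFRSF10A) or DR5 (TNFRSF10B), or when FAS ligand binds FAS, the adaptor FADD is recruited and in turn gathers procaspase-8 and procaspase-10, whose proximity starts their activation. CFLAR, which encodes FLIP, resembles caspase-8 and competes for FADD, while decoy receptors bind TRAIL without passing on a full death signal. TNFRSF10B is a known target of the stress factor CHOP (DDIT3), so the pathway is often examined in cells under endoplasmic reticulum (ER) stress.

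The 4 libraries held between 16353554 and 35733735 expected counts, the replicate 1 libraries of EV and FCN3 being the deeper ones. FCN3 had 1 and 0 expected counts in the EV libraries against 722388 and 448352 in the FCN3 libraries. Epithelial markers were present, the sum of KRT8, KRT18, KRT19, EPCAM and CDH1 lying between 3634 and 4587 TPM (transcript abundance scaled to transcript length and library depth) in EV and between 4135 and 5259 TPM in FCN3 libraries, nearly all of it from KRT8 and KRT18. The 3 keratins rose, whereas EPCAM fell from 2.66 and 3.65 TPM to 1.09 and 1.61 TPM and CDH1 from 6.06 and 9.53 TPM to 3.35 and 6.79 TPM (edgeR adjusted p = 1.6e-04 and 3.2e-06 with the block). The alveolar type II markers SFTPA1, SFTPA2, SFTPB and SFTPC summed to at most 0.06 TPM. PTPRC, an immune marker, had at most 1 count, and CD3E and the endothelial marker PECAM1 had 0 counts in every library. Endothelial markers summed to at most 0.08 TPM. Fibroblast markers summed to between 3.57 and 8.61 TPM in EV and between 2.86 and 8.35 TPM in FCN3 libraries, mostly from COL1A1, which had 388 and 431 counts in EV and 313 and 526 in FCN3 libraries. Summed immune markers lay between 35.9 and 36.8 TPM in EV and between 50.2 and 62.7 TPM in FCN3 libraries, nearly all of it from CD68, a lysosomal protein that is not restricted to macrophages. CD68 rose with FCN3 and CD14 fell, from 1.99 and 1.06 TPM to 0.82 and 0.32 TPM (edgeR adjusted p = 5.6e-13 and 0.0023 with the block). The part of these differences in the results below was not tested.

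The promoter set used here held a window for 6 of the 10 members, 13 windows in all. TNFRSF10A, TNFRSF10B, TNFRSF10D and CASP10 had no window, so their promoters were not searched. FAS and TNFRSF1A are shown because they are the receptors that moved furthest in opposite directions. In GRCh37 coordinates FAS spans 90750414 to 90775542 of chromosome 10 (plus strand) and TNFRSF1A spans 6437923 to 6451280 of chromosome 12 (minus strand). Each RefSeq window (GRCh38.p14) runs from 250 bases before an annotated start site to 50 bases after it, and capitals mark the GC box GGGCGG on either strand. FAS has 3 windows, of which the one at an internal start site is shown. That window holds 2 GC boxes, and each of the other FAS windows holds 1.
FAS, internal start site, chr10:88991181-88991480, plus strand: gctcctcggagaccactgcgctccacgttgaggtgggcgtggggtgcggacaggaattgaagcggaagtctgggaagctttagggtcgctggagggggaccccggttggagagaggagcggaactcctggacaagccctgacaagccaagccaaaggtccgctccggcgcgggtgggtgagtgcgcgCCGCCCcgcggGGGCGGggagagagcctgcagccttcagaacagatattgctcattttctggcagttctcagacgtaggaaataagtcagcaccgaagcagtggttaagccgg
TNFRSF1A, chr12:6342027-6342326, minus strand: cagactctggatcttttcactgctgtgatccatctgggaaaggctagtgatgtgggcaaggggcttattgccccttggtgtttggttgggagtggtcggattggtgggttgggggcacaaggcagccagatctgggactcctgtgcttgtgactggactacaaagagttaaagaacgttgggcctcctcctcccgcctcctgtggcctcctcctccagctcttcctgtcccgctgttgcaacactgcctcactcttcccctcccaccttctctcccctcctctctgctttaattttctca
The letters TGATGNAA, a core shared by C/EBP-ATF composite elements, and the consensus NF-kB site were searched on both strands and were in 0 of 13 member windows, against 3.62% and 0.191% of 35116 RefSeq windows. At shares this low, 0 of 13 says little, and the search did not cover TNFRSF10B. The GC box, searched in the same way, was in 7 of the 13, belonging to FAS, FADD, CFLAR and CASP8, against 45.0% of all windows. Windows of a gene can overlap, so the 13 are not independent. The FAS windows chr10:88990548-88990847 and chr10:88990664-88990963 share the same GC box, which is counted in both. These matches describe letters only.

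Within the pathway, the death receptors FAS, TNFRSF10B and TNFRSF10A were higher with FCN3. CASP10, CFLAR and the decoy TNFRSF10D were higher by less, TNFRSF1A was lower, and FADD and CASP8 showed no change that passed the test. Values in CPM (counts scaled to library size) were normalized by the trimmed mean of M values (TMM), and groups were compared with edgeR's quasi-likelihood test over 14099 genes at an FDR of 0.01, with the replicate number as a block. In this paired test 7 of the 9 tested members passed, 6 higher and 1 lower, against 36.2% of all tested genes called, 19.1% higher and 17.1% lower. The median log2 fold change of the 9 was 0.33, beside 0.01 over all tested genes. Without the block, edgeR called 0 of the 9, beside 0.965% of all tested genes, and 6 of the 9 had an unadjusted p under 0.05, beside 25.1%. DESeq2 without the block called 4 members, 3 of them higher, beside 7.86% of the genes to which it gave an adjusted p. Both FCN3 libraries lay outside the range of the EV libraries in 7 members, 6 above and 1 below it, a pattern seen in 54.5% of tested genes, with 28% above, and 7 members were higher in both same-numbered pairs, as were 41.7% of tested genes. Values with and without the block are given together for each member.

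**Figure D1:**
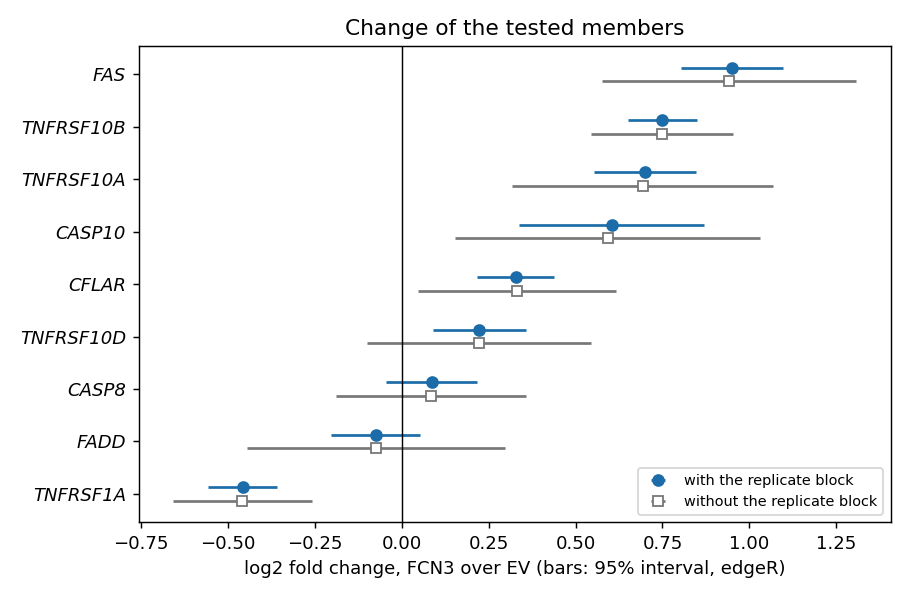
Log2 fold change of the 9 tested members, FCN3 over EV, with 95% intervals from edgeR fitted with the replicate block (filled) and without it (open). The estimates nearly coincide and the intervals differ: the paired interval excludes 0 in 7 members, and the unpaired interval crosses 0 in TNFRSF10D, CASP8 and FADD.

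FAS, the receptor of FAS ligand, showed the largest change of the 10 members. It was at 30.0 and 23.5 CPM in EV replicates 1 and 2, and at 54.2 and 49.2 CPM in FCN3 replicates 1 and 2. Both FCN3 libraries were above both EV libraries, with no overlap between the groups. The log2 difference was 0.85 in the first pair and 1.06 in the second. The fitted log2 fold change was 0.95 (standard error 0.07, 95% interval 0.80 to 1.10), a 1.93-fold difference, with an edgeR adjusted p of 4.1e-16 with the block and 0.026 without it. DESeq2 without the block gave an adjusted p of 2.7e-05. FAS exons overlap those of ACTA2 on the other strand, and the strand setting of the counting is not given in the sources used here. ACTA2, which encodes smooth muscle actin, also rose, by 0.83 on the log2 scale (edgeR adjusted p = 1.2e-11 with the block), from 537 and 289.6 expected counts in EV to 909.79 and 594.87 in FCN3 libraries. FAS had 1092 and 393 counts in EV and 1837 and 979 in FCN3 libraries, and the share of reads that could belong to either gene was not tested.

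TNFRSF10B encodes DR5, a TRAIL receptor with a death domain (GRCh37 chromosome 8, positions 22877646 to 22926544, minus strand). Its level was 286 and 268 CPM in the EV libraries and at 473 and 459 CPM in the FCN3 libraries. The libraries of each group lay close together, and the gap between the groups was wider than the spread within either. The pairs differed by 0.72 and 0.77 on the log2 scale. Its log2 fold change was 0.75 (standard error 0.05, 95% interval 0.65 to 0.85), or 1.68-fold, with an edgeR adjusted p of 1.2e-18 with the block and 0.012 without it. This was the smallest adjusted p of any member in either fit. DESeq2 without the block gave 1.9e-08. RHOBTB2, whose exons overlap TNFRSF10B on the other strand, fell by 0.64 on the log2 scale (edgeR adjusted p = 1.2e-10 with the block).

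TNFRSF10A, encoding DR4, the other TRAIL receptor with a death domain, lies in the same cluster on chromosome 8, from 23047965 to 23082615. Its values were 30.8 and 24.7 CPM in EV and 48.5 and 41.6 CPM in FCN3 libraries. Replicate 1 was the higher library in both groups, and the groups did not overlap. With pair differences of 0.65 and 0.75, the log2 fold change came to 0.70 (standard error 0.07, 95% interval 0.55 to 0.85). The edgeR adjusted p was 1.2e-11 with the block and 0.057 without it, and DESeq2 without the block gave 0.0061. Exons of TNFRSF10A-AS1 and TNFRSF10A-DT, annotated on the other strand, overlap those of TNFRSF10A.

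TNFRSF10D encodes DcR2, a decoy receptor for TRAIL with a truncated death domain, and lies between them, from 22993101 to 23021540. It was at 39.1 and 46.7 CPM in EV and at 46.9 and 52.8 CPM in FCN3 libraries. Here replicate 2 was the higher library in both groups, and FCN3 replicate 1 stood barely above EV replicate 2. The pairs differed by 0.26 and 0.18. The log2 fold change of 0.22 (standard error 0.07, 95% interval 0.09 to 0.36) passed only with the block, at an edgeR adjusted p of 0.005 against 0.35 without it. DESeq2 gave 0.22 with the block and 0.55 without it. TNFRSF10C, a decoy receptor without a death domain and no member of the set, had between 17.2 and 38.6 expected counts a library, fractional values, as arise when reads fit several genes. Its log2 fold change was 0.60 (standard error 0.32, edgeR adjusted p = 0.12 with the block).

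TNFRSF1A encodes the main receptor of TNF, which signals through TRADD before any death complex forms. It was the only member called lower. Its values were 340 and 363 CPM in EV and 256 and 255 CPM in FCN3 libraries. The FCN3 libraries were nearly equal and both lay below the EV libraries. The pair differences were -0.41 and -0.51, and the log2 fold change was -0.46 (standard error 0.05, 95% interval -0.56 to -0.36), with an edgeR adjusted p of 4.8e-11 with the block and 0.034 without it. The fitted fold was 0.728. DESeq2 without the block called it, at 6.3e-04.

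**Figure D2:**
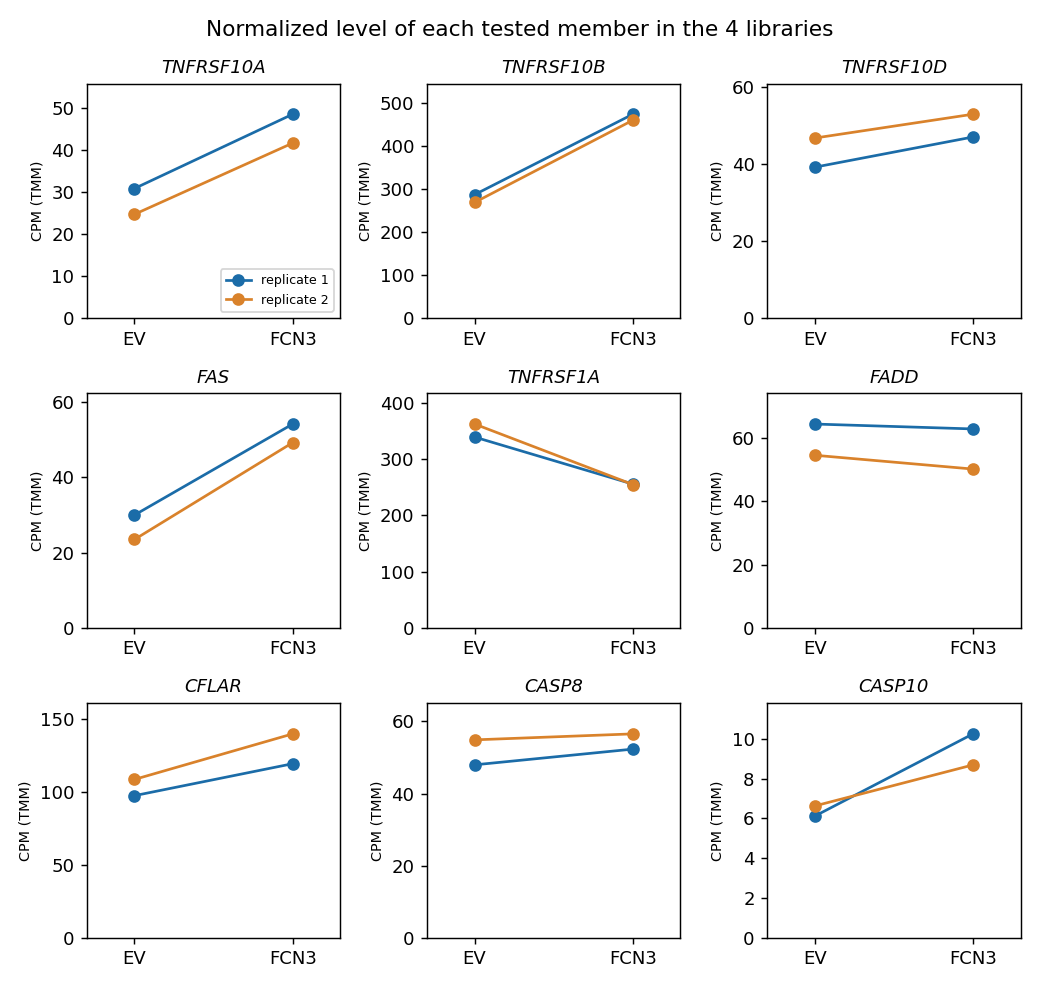
TMM-normalized CPM of the 9 tested members in each library, EV on the left and FCN3 on the right of each panel, with lines joining libraries of the same replicate number. The lines of FAS, TNFRSF10A and TNFRSF10B rise nearly in parallel, those of TNFRSF1A fall, and those of FADD and CASP8 are close to flat.

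No read was assigned to TNFSF10, the gene for TRAIL, in any of the 4 libraries. At 3 counts, the limit that a count of 0 allows, its level was below 0.0954 and 0.206 TPM in the EV libraries and below 0.0943 and 0.163 TPM in the FCN3 libraries, limits that cover counting error only. The gene was therefore not tested, and a change in it was not detectable at this depth. The genes for FAS ligand and TNF were also at or near 0: FASLG, the ligand of FAS, had 1 count in FCN3 replicate 2 and 0 elsewhere, and TNF had 1 count in replicate 1 of each group and 0 in replicate 2. The decoy TNFRSF11B, also called osteoprotegerin, had 0 counts throughout.

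FADD, the adaptor that links FAS and the TRAIL receptors to the initiator caspases, spans 70049402 to 70053496 of chromosome 11 (GRCh37, plus strand). Its level was 64.4 and 54.5 CPM in EV and at 62.9 and 50.2 CPM in FCN3 libraries. The groups overlapped, and replicate 1 was higher than replicate 2 in both. The log2 fold change was -0.07 (standard error 0.06, edgeR adjusted p = 0.35 with the block and 0.81 without it). The 95% interval was -0.20 to 0.05 with the block and -0.45 to 0.30 without it. FADD overlaps an annotated gene on the other strand.

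CFLAR, CASP10 and CASP8 lie side by side on the plus strand of chromosome 2 of GRCh37, CFLAR from 201980877 to 202041410, CASP10 from 202047595 to 202094151 and CASP8 from 202098166 to 202226559. The fitted changes of the 3 neighbours differed in size, but a difference between the genes was not tested. CFLAR, the competitor of caspase-8, was at 97.2 and 108 CPM in EV and at 119 and 140 CPM in FCN3 libraries. Each FCN3 library was above both EV libraries, and replicate 2 was the higher library in both groups. Its log2 fold change was 0.33 (standard error 0.06, 95% interval 0.22 to 0.44), with an edgeR adjusted p of 1.9e-06 with the block and 0.15 without it. DESeq2 called it with the block, at 0.0021, and not without it, at 0.16. On log2(TPM + 1) with the block, limma gave a difference of 0.17 that did not pass the threshold. Exons of CFLAR and of CASP8 overlap those of other genes annotated on the same strand. The share of reads that could belong to either gene was not tested.

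CASP10, an initiator caspase of the same complex, had the lowest level of the detected members, at 223 and 111 expected counts in EV and 348 and 173 in FCN3 libraries. These were 6.12 and 6.63 CPM in EV and 10.3 and 8.70 CPM in FCN3 libraries, without overlap. The pairs differed unevenly, by 0.74 and 0.39. The log2 fold change was 0.60 with the widest error of the set (standard error 0.13, 95% interval 0.34 to 0.87). The edgeR adjusted p was 1.5e-04 with the block and 0.11 without it, and DESeq2 gave 0.12 with the block and 0.21 without it.

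CASP8, the principal initiator caspase, was at 48.0 and 54.9 CPM in EV and at 52.3 and 56.6 CPM in FCN3 libraries. FCN3 replicate 1 fell below EV replicate 2, so that the groups overlapped. The log2 fold change was 0.09 (standard error 0.06, 95% interval -0.04 to 0.22, edgeR adjusted p = 0.28 with the block and 0.69 without it). On the TPM scale it changed sign, with means of 37.8 TPM in EV and 36.8 TPM in FCN3 libraries.

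Levels were compared between genes on the TPM scale, which divides by transcript length. TNFRSF1A ranked first in every library, at 303 and 320 TPM in EV and 210 and 212 TPM in FCN3 libraries. TNFRSF10B ranked second, at 133 and 124 TPM in EV and 202 and 200 TPM in FCN3 libraries, so that the distance between these receptors narrowed. CFLAR (75.1 to 86.6 TPM over the 4 libraries) came next throughout, followed by FADD (51.0 to 70.1). Behind them TNFRSF10A (28.4 to 51.7), CASP8 (34.8 to 39.4), FAS (17.0 to 36.3) and TNFRSF10D (21.3 to 26.9) lay closer together. The ranges of TNFRSF10A, CASP8 and FAS overlapped, and that of TNFRSF10D overlapped with FAS alone. In both EV libraries CASP8 was above TNFRSF10A, and in both FCN3 libraries TNFRSF10A was above CASP8. In EV replicate 1 the 2 genes were nearly level, at 36.25 TPM for CASP8 and 35.72 TPM for TNFRSF10A. CASP10 followed at 1.97 to 3.31 TPM. FCN3 itself took 41618 and 44730 TPM in its libraries, which lowers the TPM of every other gene there.

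**Figure D3:**
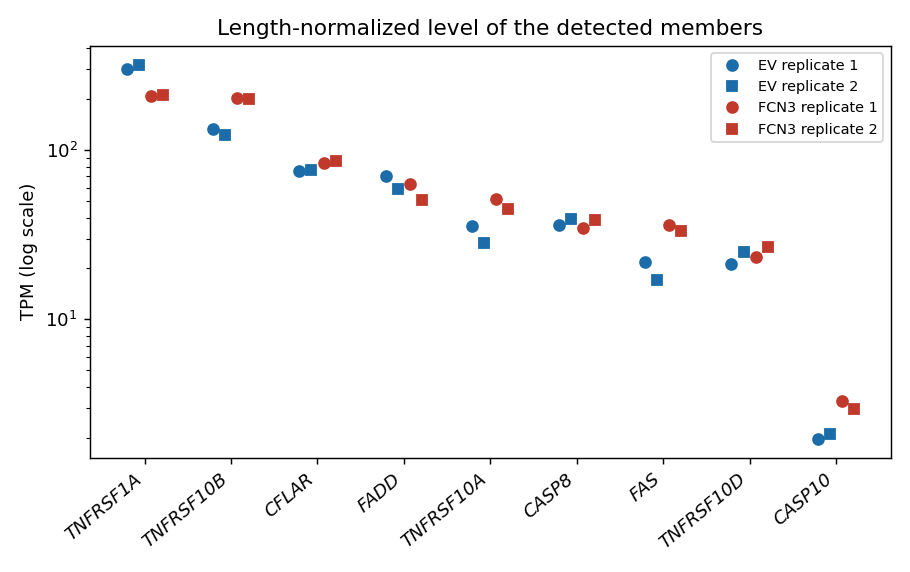
TPM of the 9 detected members on a log scale in each of the 4 libraries, ordered by their mean. TNFRSF1A and TNFRSF10B lead in every library, CASP10 lies below 4 TPM, and FAS and TNFRSF10D exchange places between EV replicate 1 and EV replicate 2.

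Ratios of TPM within a library describe the balance of the pathway, and the smallest two-sided p of an exact permutation test of 2 libraries against 2 is 0.333, so none was tested. The TRAIL receptors with a death domain, TNFRSF10A and TNFRSF10B together, stood over the decoys TNFRSF10C and TNFRSF10D by 7.70 and 5.58 in EV and by 10.3 and 8.33 in FCN3 libraries. This ratio was higher with FCN3 in both pairs. TNFRSF10B over TNFRSF10A was 3.73 and 4.36 in EV and 3.92 and 4.42 in FCN3 libraries, values that overlap. CFLAR over CASP8 was 2.07 and 1.94 in EV and 2.41 and 2.23 in FCN3 libraries, a higher ratio of inhibitor to caspase transcript with FCN3 in both pairs. CASP8 over CASP10 was 18.4 and 18.7 in EV and 10.5 and 13.2 in FCN3 libraries.

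The tables also give for each gene a transcript length averaged over its isoforms by their abundance, a value that moves when the isoform mix does. For CASP10 it was 5860 and 5892 bases in EV and 5392 and 5242 bases in FCN3 libraries, shorter in both pairs. These estimates rest on 223 and 111 expected counts in EV and 348 and 173 in FCN3 libraries, the fewest of the detected members. A change in isoform mix was not tested. For CFLAR it was 2542 and 2748 bases in EV and 2562 and 2931 bases in FCN3 libraries, longer in replicate 2 than in replicate 1 of both groups. The lengths of CASP8 ranged from 2594 to 2703 bases without a common direction, and those of FAS stayed between 2680 and 2685 bases. With an offset for these lengths the log2 fold change of CASP10 was 0.75 and that of CFLAR was 0.27, and both remained called by edgeR with the block.

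**Figure D4:**
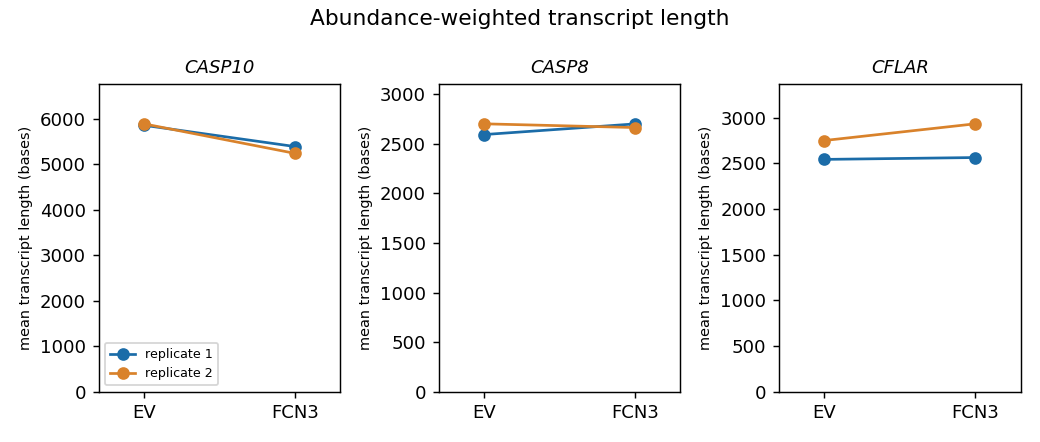
Abundance-weighted mean transcript length in bases of CASP10, CASP8 and CFLAR in each library, with lines joining libraries of the same replicate number. CASP10 is shorter in both FCN3 libraries, at 5392 and 5242 bases against 5860 and 5892 bases, estimated from the fewest counts of the detected members.

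Downstream of the receptors, adaptor and ubiquitin enzyme genes moved in both directions. Of 19 listed genes of the receptor complexes, 18 were tested, 5 rose and 4 fell in the paired test, and the median change was 0.06 on the log2 scale. Over all tested genes the same test called 19.1% higher and 17.1% lower, the shares against which the counts of each further list are to be read. RBCK1, which encodes HOIL-1, a subunit of the linear ubiquitin assembly complex (LUBAC), rose by 1.01 on the log2 scale (standard error 0.05), from 81.5 and 105 CPM to 169 and 205 CPM (edgeR adjusted p = 4.8e-22 with the block and 0.028 without it). The catalytic subunit RNF31 rose by 0.30 (edgeR adjusted p = 3.9e-04 with the block), and SHARPIN, its remaining subunit, had a log2 fold change of 0.14 (edgeR adjusted p = 0.094). TRAF2, an adaptor of the TNF receptor complexes, fell by 0.56 (standard error 0.06), from 75.3 and 89.8 CPM to 52.1 and 59.5 CPM (edgeR adjusted p = 3.6e-11 with the block and 0.062 without it). The other called genes were TRADD, TAB2 and CYLD, which rose by 0.38, 0.34 and 0.26, and TNFAIP3, TRAF3 and BIRC3, which fell by 0.42, 0.27 and 0.24. RIPK1 had a log2 fold change of 0.03 (edgeR adjusted p = 0.78), and RIPK3, the kinase of necroptosis, had 0 counts in every library.

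Among 15 tested genes of the executioner caspases and their control, 3 rose and 5 fell in the paired test, beside 19.1% and 17.1% of all tested genes, and the median change was -0.05 on the log2 scale. XIAP, an inhibitor of caspases, rose by 0.82 (standard error 0.06), from 65.0 and 48.5 CPM to 112 and 88.6 CPM (edgeR adjusted p = 5.3e-17 with the block and 0.061 without it). BIRC5, which encodes survivin and is expressed mainly in dividing cells, fell by 0.78 (standard error 0.05), from 229 and 194 CPM to 131 and 116 CPM (edgeR adjusted p = 4.0e-18 with the block and 0.025 without it). BID, which carries the signal of caspase-8 to mitochondria, fell by 0.37, the caspase substrate PARP1 by 0.39 and the nuclease inhibitor DFFA by 0.22. CYCS and LMNA rose by 0.21 and 0.17 (edgeR adjusted p = 5.1e-04 and 0.0035 with the block, 0.43 and 0.38 without it). The groups overlapped in CYCS, at 325 and 259 CPM in EV and 361 and 312 CPM in FCN3 libraries. CASP9, the initiator of the mitochondrial pathway, had a log2 fold change of 0.11 and was not called.

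Of 16 other receptors and ligands, 8 were tested, 2 rose, 0 fell and 6 were not called with the block, beside 36.2% called over all tested genes, and the median log2 fold change was 0.26. Those that rose were TNFRSF12A, the receptor of TWEAK, by 0.24, and TNFRSF21, also called DR6, by 0.25. The groups overlapped in TNFRSF21, at 88.2 and 56.5 CPM in EV and 94.5 and 75.9 CPM in FCN3 libraries. Its edgeR adjusted p was 8.3e-04 with the block and 0.59 without it. The largest change of this list was that of TNFRSF6B, which was not called. Its log2 fold change was -0.93 (edgeR adjusted p = 0.011 with the block and 0.3 without it). It had 49.89 and 30.94 expected counts in EV and 19.17 and 25.05 in FCN3 libraries. In edgeR without the block 0 of these 8, 0 of the 18 complex genes and 0 of the 15 executioner genes were called. By DESeq2 without the block RBCK1, TRAF2, XIAP, BIRC5 and PARP1 were called, at adjusted p of 2.7e-07, 0.0045, 9.9e-04, 5.5e-06 and 0.0099.

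Known regulators of the members were listed too, 17 genes of which 16 were tested, with 6 higher and 3 lower at the threshold with the block, beside 19.1% and 17.1% of all tested genes, and a median change of 0.12. DDIT3, which encodes CHOP, was at 6.92 and 7.89 CPM in EV and at 155 and 143 CPM in FCN3 libraries (edgeR adjusted p = 9.2e-44 with the block and 4.0e-04 without it). TRIB3 rose by 2.70 on the log2 scale, and ATF4, which lies upstream of DDIT3 and TRIB3, by 0.61. DDIT3 and TRIB3 were the 2 genes of the 4 lists that edgeR called without the block. ERN1, the ER stress sensor IRE1 whose nuclease has been reported to cleave the TNFRSF10B transcript, rose by 1.32 (standard error 0.12), from 6.06 and 5.02 CPM to 13.9 and 14.2 CPM (edgeR adjusted p = 4.6e-13 with the block and 0.016 without it). MDM2, a ubiquitin ligase, rose by 1.24 (edgeR adjusted p = 1.5e-25 with the block and 0.028 without it). NFKBIA, a target and inhibitor of NF-kB, fell by 0.60 (edgeR adjusted p = 2.2e-12 with the block). NFKB1 and RELA, the NF-kB subunits, had log2 fold changes of -0.15 and 0.17, neither called.

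**Figure D5:**
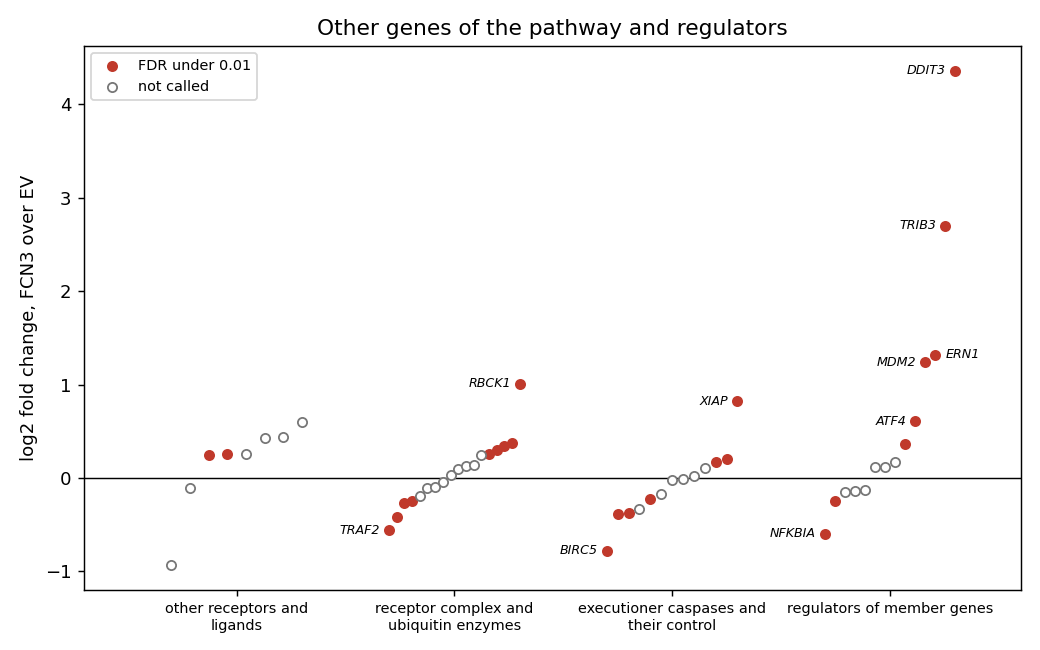
Log2 fold change, FCN3 over EV, of genes tested in the 4 further lists, leaving out a few that are not reported here, filled where the paired edgeR test passed an FDR of 0.01 and open where it did not, with names for called genes whose change was at least 0.5 in size. RBCK1 and XIAP stand at 1.01 and 0.82, TRAF2 and BIRC5 at -0.56 and -0.78, and DDIT3 lies above all others at 4.36.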

How the data were processed

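The authors trimmed adapters and low-quality reads (Fastx_toolkit), aligned paired-end reads to hg19 with STAR 2.6.1d and estimated abundance with RSEM. They deposited, per gene and library, expected counts (not normalized, fractional where a read fits several genes), TPM and FPKM (both normalized for length and depth) and mean transcript lengths in bases. FPKM was not used. Counts were rounded to whole numbers and tested in R 4.3.3 with edgeR 4.0.16 (TMM, filterByExpr, quasi-likelihood, Benjamini-Hochberg over 14099 genes, FDR 0.01). Each standard error is the size of the fitted change over the root of its F statistic. With the block, 4 libraries leave few residual degrees of freedom per gene. The spread behind each paired edgeR p-value is therefore largely pooled across genes. CPM are TMM-normalized, with 0.1 added for log2 pair differences. Groups and replicate numbers came from the sample titles. The labels do not say what the number marks. Across 8310 genes with an average log2 CPM above 4, replicate 1 minus 2 in EV correlated with that in FCN3 libraries (Pearson's r = 0.81, across genes, which are not independent), and the comparison was asked for as a paired one, so the block is in the model. Fits without it, DESeq2 1.42.0, limma 3.58.1, other filters and scalings, each library left out and the main fit read at an FDR of 0.05 were alternatives. An offset from effective lengths was added after seeing the data. Members and lists were chosen with earlier results of these data known. All members are named, with genes of the other lists called with a change of at least 0.5 on the log2 scale and DDIT3 and ERN1, except for a few that are not reported here. Others were named after their values were seen. Older symbols matched 2 listed genes. The edgeR fits with and without the block were tested on simulated data. Every simulated gene had the same dispersion, and replicate differences were absent or taken from these libraries. That simulation cannot show whether the paired p-values hold for the real data. Locations are from GENCODE on GRCh37, promoters from RefSeq.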

Additional observations from a re-analysis of the deposited data

How the results depend on the processing

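Most results rested on the replicate block. Of 14099 genes, edgeR called 5103 with the block and 136 without it. DESeq2, fitted over 18636 genes, called 2212 with the block and 1047 without it. In the fit without the block it gave an adjusted p to 13317 of them. The 7 members called with the block became 0 in edgeR without it (6 with an unadjusted p under 0.05) and 4 in DESeq2 without it. On log2(TPM + 0.1) with the block, limma called 4 members. The 28 genes called in the other lists became 2 in edgeR without the block, and 15 and 12 by DESeq2 with and without it. With 1 library left out in turn, fitted without the block since 3 libraries leave no residual degree of freedom with it, between 92 and 267 genes, 0 members (4 to 6 with an unadjusted p under 0.05) and 2 to 5 genes of the other lists were called. A lone library was then assumed to vary like the other group. FAS, TNFRSF10A, TNFRSF10B and TNFRSF1A kept their direction in all 17 alternatives and their call in 12, CFLAR and CASP10 kept their direction in all and their call in 9, and TNFRSF10D its call in 7. The 17 include the main fit read at an FDR of 0.05, where no direction could change and no call could be lost. Most of the 17 keep the block and all reuse the same libraries, so these tallies are not independent checks. Every edgeR fit without the block lost the calls of all members. Changes that reversed were those of genes not called: FADD ranged from -0.25 to 0.0777 and CASP8 from -0.00401 to 0.17 with a library left out, and CASP8 was -0.0379 in limma on TPM with 1 added and -0.0389 with 0.1 added. The cause was not tested.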
